A study of Ovis aries with 40 samples.

Results

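Gene expression in longissimus dorsi, the long muscle of the back, was compared between newborn and 1-month-old lambs of the Ujumqin breed, an indigenous Chinese sheep. Of the 40 arrays of the series, 6 made up this comparison, 3 of animals sampled at birth and 3 of animals at 1 month, chosen by the stage and breed in their titles. Each array held the RNA of 1 animal, and by the labels each of the 2 groups had 2 females and 1 male. The neighbouring stages of the same breed, 135 d of gestation and 2 months, had 3 animals each, all female, and are given beside the comparison for some genes. No treatment was named for any of them. A rise or fall from birth to 1 month can also be a return to the level at 135 d. The labels describe purebred ewes that were synchronised and artificially inseminated for the study, and collection by caesarean section for the fetuses; how the lambs sampled after birth were obtained, fed and killed was not given in the sources used here. The other arrays held fetal Ujumqin and Texel muscle and entered the normalization and the alternative fits of all 40 arrays, among them the one with slide as a block.

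Muscle fibre number in sheep is largely set before birth, and the muscle grows after birth mainly by enlargement of existing fibres, with satellite cells adding nuclei. Over the same weeks red and white blood cell formation settles in the bone marrow, maternal hormones are withdrawn, and the lamb meets microbes, milk and movement. Whole muscle RNA holds fibres together with vessel, connective tissue, nerve and blood cells. Fewer cells of a type and less RNA per cell cannot be told apart in such samples.

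The labelled tissue was checked on 13 muscle fibre markers, of which 7 were named on the array. All 7 were well above background on all 6 arrays, and their summed signal was 20.21 to 20.36 on the log2 scale at birth and 20.19 to 20.34 at 1 month. The brightest markers dominate this sum. Quantile normalization gives every array the same set of top values and limits how far such sums can differ. Their closeness therefore does not show equal fibre content. Adipocyte markers (3 of 4 named on the array) summed to 10.21 to 11.80 at birth and 10.49 to 10.78 at 1 month. Endothelial markers (2 of 5) summed to 8.05 to 8.81 and 8.02 to 8.97, and nerve and glia markers (2 of 5) to 10.14 to 11.03 and 11.05 to 11.56. Of the liver markers, 2 of 3 were on the array, and the defining one, ALB, was well above background on 2 arrays of each group. None of the 3 epidermal markers was named on the array.

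From birth to 1 month, 565 of 13692 tested probes rose and 438 fell at least 2-fold at a limma adjusted p under 0.05, together 1003 probes or 7.33% of those tested. The risers were 4.13% and the fallers 3.20% of the tested probes. Most of them, 808, carried no gene symbol, since this array was built largely from expressed sequence tags. Among the 1618 tested probes with a symbol 195 were called (12.1%), 111 higher (6.86%) and 84 lower (5.19%) at 1 month. Counts of called genes in the lists below are to be read beside that 12.1%, and counts of probes grouped by description beside the 7.33%. These 195 probes stood for 161 of 1081 genes, 91 higher and 70 lower, and no gene had probes called in both directions. The median difference over all tested probes was -0.01. The 3 birth and 3 one-month values did not overlap for 991 of the 1003 called probes, against 40.3% of all tested probes. Leaving out each of the 6 arrays in turn, 472 of the called probes, 105 of them with a symbol, were called every time.

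**Figure D1:**
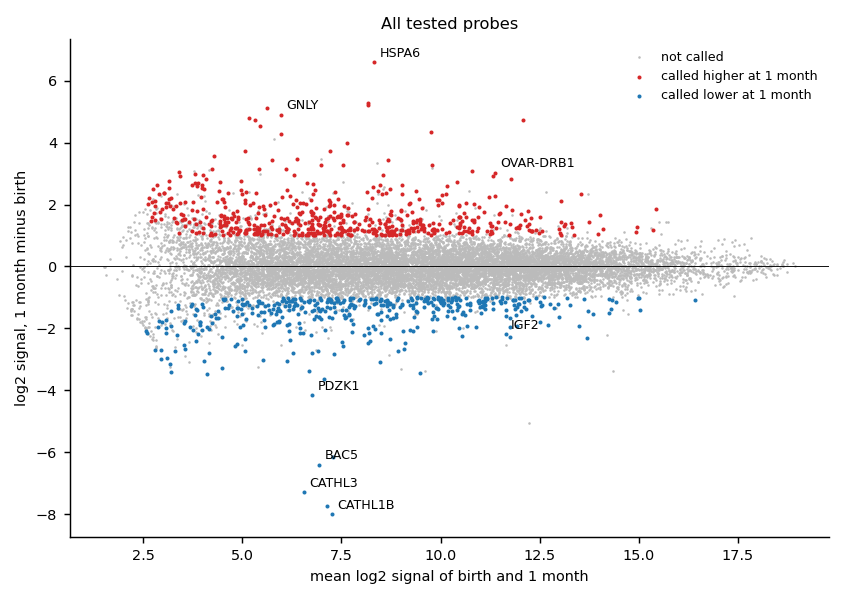
Each point is a tested probe, with the mean log2 signal of the birth and 1-month groups on the x axis and the log2 difference, 1 month minus birth, on the y axis. Red points (565) were called higher and blue points (438) called lower at 1 month, and the cathelicidin probes at the bottom and HSPA6 at the top lie apart from the rest.

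All 3 birth arrays lay on slide 1 and all 3 one-month arrays on slide 3, each slide being 1 scan, so that slide and age cannot be told apart among the 6. Slides could be linked only through fetal arrays. With slide as a fixed block in a fit of all 40 arrays, 0 probes were called by limma and 659 had an unadjusted p under 0.05 with a 2-fold change, while the median standard error of the difference went from 0.217 to 0.534. Of the 1003 called probes, 963 kept their direction in that fit, and 328 had an unadjusted p under 0.05 in the same direction. Values from that fit are named below as slide-adjusted.

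The sharpest decline was that of the cathelicidins, antimicrobial peptides that neutrophils store in their granules. The probes are shown by the last 30 of their 60 bases, since all of them hold there the hexamer AATAAA, the common polyadenylation signal, which is in capitals. Probes of different cathelicidin genes shared runs of at most 12 bases, so they are separate readings of the family.
CATHL1B: ggatctgaaaAATAAActcttgtgacatga
CATHL3: gacggtgaaaAATAAAttctggtgaagaca
BAC5: gagtcagcatccaaaaAATAAAatcttgtg
SC5: tgagaAATAAAttcttgtgagaacaaattc
On the strand printed, 845 of the 15008 probes of the array (5.63%) held that hexamer, and 67 of the 1003 called probes (6.68%) did. A match describes the probe and no regulation.

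The CATHL1B probe read 12.20, 12.20 and 9.38 (log2 signal) in the 3 newborn animals and 5.37, 2.87 and 1.56 at 1 month. It fell by 7.99 on the log2 scale (SE 1.34, adjusted p 0.0046), with all newborn values above all later ones, although it was well above background on 1 of the 3 one-month arrays. Its second probe, shifted by 1 base and sharing 59 bases, differed by -7.73. CATHL3 read 11.31, 10.72 and 8.52 at birth and 3.86, 2.23 and 2.64 at 1 month, where no array was well above background. The signal at birth was thus at least 83.8-fold higher (adjusted p 0.00299). BAC5, the gene of the proline-rich peptide bactenecin 5, went from 11.29, 10.81 and 8.34 to 4.67, 3.87 and 2.69, a difference of -6.40 (SE 0.97, adjusted p 0.00308). Newborn replicate 3 was the lowest newborn for all 3 of these genes, yet lay above every 1-month value.

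SC5, another cathelicidin, fell too. It read 9.44, 10.00 and 8.62 at birth and 7.36, 7.33 and 7.30 at 1 month, a difference of -2.02 (SE 0.47, adjusted p 0.0167). S100A9, a calcium-binding protein abundant in neutrophils, went from 10.08, 10.42 and 9.79 to 8.74, 8.58 and 8.64, a difference of -1.44 (adjusted p 0.0471). LTF, which encodes the granule protein lactoferrin, differed by -1.80 and was not called (adjusted p 0.065). The cathelicidin signals were already high at 135 d of gestation, with means of 12.23 for CATHL1B, 11.82 for CATHL3 and 11.59 for BAC5, and stood at 3.60, 2.75 and 4.06 at 2 months. Slide-adjusted differences of these 3 genes were -6.42, -6.59 and -5.67, with unadjusted p values of 0.0555, 0.0238 and 0.0454. That of SC5 was -1.38 (unadjusted p 0.508) and that of S100A9 -2.39 (unadjusted p 0.145). The SC5 call was lost without birth replicate 2 (-1.70) or 1 month replicate 2 (-2.02), and the S100A9 call without any 1 of the 6 arrays (-1.60 to -1.28).

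Red cell transcripts are given beside them. HBB, the beta chain of haemoglobin, read 12.72, 16.57 and 16.56 at birth and 13.90, 13.08 and 14.71 at 1 month. The groups overlapped, and the difference of -1.39 (SE 0.99) was not called (adjusted p 0.343); without birth replicate 1 it was -2.67 and called. AHSP, the chaperone of alpha globin, differed by -1.96 and -1.94 on its probes, and neither was called (adjusted p 0.248 and 0.266). On both AHSP probes all newborn values lay above all 1-month values. Newborn replicate 1 was lowest in HBB and high in the cathelicidins, replicate 2 was high in both, and replicate 3 was high in HBB and lowest in the cathelicidins. The part of blood content in the cathelicidin decline was not tested.

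**Figure D2:**
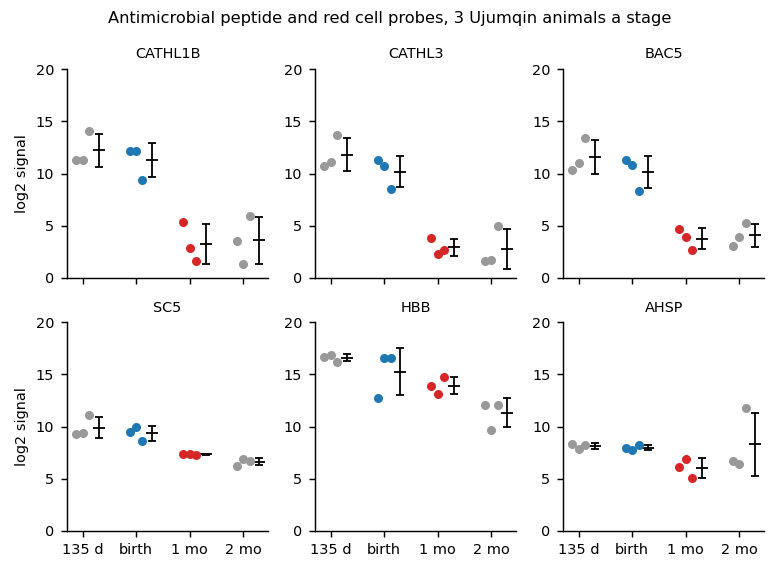
Log2 signal of 4 cathelicidin probes and of the red cell genes HBB and AHSP at 135 d of gestation, birth, 1 month and 2 months; dots are single animals and the bar is the mean with its SD. CATHL1B, CATHL3 and BAC5 lie between 8.34 and 12.20 at birth and between 1.56 and 5.37 at 1 month, while HBB overlaps between birth and 1 month and AHSP does not.

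Several T cell genes rose. Among them were 3 subunits of the CD3 complex, which passes the signal of the T cell receptor into the cell. CD3G read 5.79, 5.53 and 6.40 at birth and 9.36, 9.0 and 9.17 at 1 month, a rise of 3.27 (SE 0.32, adjusted p 0.000609), or 9.62-fold. CD3E rose from 6.75, 7.34 and 7.43 to 9.50, 9.21 and 9.42, by 2.20 (SE 0.30, adjusted p 0.00213). CD3D rose by 1.90 (SE 0.32, adjusted p 0.00439) and CD5, a surface receptor of T cells, by 1.76 (SE 0.26, adjusted p 0.00261). For each of these genes the lowest 1-month value lay above the highest value at birth. Levels at 2 months were 10.00 for CD3G, 10.23 for CD3E, 9.59 for CD3D and 8.27 for CD5. BCL11B, a transcription factor of developing T cells picked after its values were seen, rose by 2.26 (SE 0.31, adjusted p 0.00213). The BCL11B mean was 6.66 at 135 d, 5.07 at birth and 7.33 at 1 month.

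Of the list of 13 tested immunoglobulin and lymphocyte genes, 4 rose, 0 fell and the median difference was -0.10. Outside that count, a dimmer probe of the member CTLA4 was called lower (adjusted p 0.00472). It was not well above background on any 1-month array (at least 1.07-fold higher at birth). LCK, the kinase that acts on CD3, differed by 0.59 and CD247, the zeta chain, by 0.00, and neither was called. CD8A differed by -0.31. CD4 had 2 probes, which share 59 of their bases. One was called lower, from 4.93, 4.58 and 5.17 at birth, well above background on 2 of the 3 arrays, to values not well above background on any 1-month array (at least 2.2-fold higher at birth). The other read 4.91, 5.27 and 5.05 at birth and 4.72, 4.28 and 4.09 at 1 month, which was not called (adjusted p 0.27). Summed leukocyte markers (5 of 8 on the array) went from 10.15 to 10.34 at birth to 10.77 to 11.17 at 1 month, 1 of the 5, CD3E, being called. CD14, of monocytes, differed by 0.08, and ITGB2, a leukocyte integrin, by 0.58 on the probe that stands for it (not called) and 1.17 on another (called). Slide-adjusted differences of the CD3 genes were 2.79, 1.74 and 1.61, with unadjusted p values of 0.156, 0.309 and 0.364.

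Receptor chains were grouped by the description of the probe, after values had been seen. A probe for T cell receptor alpha rose from 8.66, 9.17 and 8.79 to 11.48, 11.36 and 11.61, by 2.61 (SE 0.25, adjusted p 0.000609), and stood at 11.53 at 2 months. In all, 27 of 49 T cell receptor probes were tested, 2 rose and 0 fell, with a median of 0.33. Of 89 immunoglobulin chain probes 56 were tested, 8 rose and 1 fell, with a median of 0.35. Both counts are to be read beside all tested probes, of which 4.13% rose and 3.20% fell. The largest of the immunoglobulin rises was a mu chain probe, A_70_P002936, at 9.51, 8.54 and 6.39 at birth and 11.10, 10.99 and 12.14 at 1 month, a difference of 3.27 (SE 0.62, adjusted p 0.00752).

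Major histocompatibility (MHC) class II genes, whose products present peptides to helper T cells, rose. All 10 class II probes read higher at 1 month, 7 of them were called higher, and the median difference was 2.98 against -0.01 over all tested probes. The probes of OVAR-DRB1, the beta chain of the DR molecule, are shown by their last 30 bases, because they read different stretches of the gene or its alleles and share runs of at most 6 bases. Capitals mark AATAAA.
OVAR-DRB1, A_70_P016821: taatgtgttccctcaAATAAAtacggagtg
OVAR-DRB1 by description, A_70_P024146: aagagcgagtgtcatttcttcaacgggacc
OVAR-DRB1 by description, A_70_P024151: aactacggggtcattgagagtttcactgtg
The first of them read 9.83, 10.04 and 9.70 at birth and 12.71, 13.41 and 12.54 at 1 month, a rise of 3.03 (SE 0.28, adjusted p 0.000609) or 8.19-fold. The second rose by 3.14 (SE 0.44, adjusted p 0.00232) and the third by 3.45 (SE 0.42, adjusted p 0.00168).

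A probe described as the DR beta 3 chain rose by 2.93 (SE 0.28, adjusted p 0.000609), from 9.68, 9.52 and 10.37 to 12.66, 13.16 and 12.56. The largest rise of a probe without a symbol that was well above background on all 3 one-month arrays was that of A_70_P016751, described as the class II gene OVAR-DQA1, at 7.57, 7.46 and 1.56 at birth and 11.39, 9.16 and 11.86 at 1 month. Its rise of 5.28 (SE 1.48, adjusted p 0.0329) was 3.29 and not called without birth replicate 3, and its call was also lost without 1 month replicate 1 (4.98) or 3 (4.75). At 2 months OVAR-DRB1 stood at 13.50 and the DR beta 3 probe at 13.31.

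Class I genes are expressed by nearly all nucleated cells. Of 15 class I probes, 3 were called higher and 12 were not called, 14 read higher at 1 month, and the median was 0.76. Whether class I and class II differed from each other was not tested. The largest rise, of A_70_P016811, was from 14.95, 14.55 and 14.04 to 16.26, 15.91 and 16.94, a difference of 1.86 (SE 0.33, adjusted p 0.00584). B2M, the light chain shared by class I molecules, read 15.84, 15.87 and 15.61 at birth and 16.48, 16.72 and 16.72 at 1 month. Its difference of 0.87 (SE 0.15) had an adjusted p of 0.0052 but was under 2-fold. With slide as a block the class II median was 0.77, with 7 of 10 differences above 0, and the class I median was -0.45, with 6 of 15 above 0. OVAR-DRB1 by its symbol then differed by 1.51 (unadjusted p 0.356), and the A_70_P024151 probe turned to -2.37 (unadjusted p 0.225). The direction of the class I median thus turned in that fit.

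**Figure D3:**
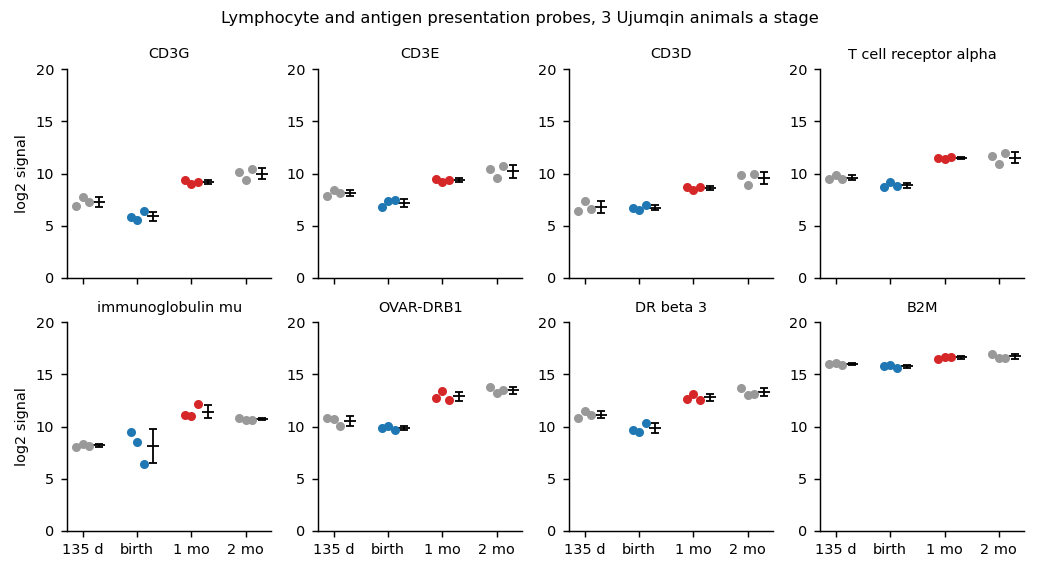
Log2 signal of T cell, immunoglobulin and MHC probes at 4 stages; dots are single animals and the bar is the mean with its SD. In all 8 panels the 1-month animals lie above the newborns, from 12.54 to 13.41 against 9.70 to 10.04 for OVAR-DRB1.

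Of 39 tested members of the myeloid and innate list 4 rose and 6 fell, with a median of 0.04. The 6 that fell were the 4 cathelicidins, S100A9 and LGALS15, a galectin that was not well above background on any 1-month array (at least 1.86-fold higher at birth). Outside that count, a dimmer probe of the member NOS2 was called lower (-1.54, adjusted p 0.0314), a call kept in 1 of the 6 fits without an array. FCGR2B, an inhibitory receptor for immunoglobulin G, rose from 5.07, 4.31 and 5.10 to 7.21, 8.79 and 7.35, by 2.95 (SE 0.44, adjusted p 0.00278). CD86, a costimulatory ligand of antigen-presenting cells, rose by 1.77 (SE 0.30, adjusted p 0.00461). IL10, an anti-inflammatory cytokine, rose by 1.58 and LYZ, lysozyme, by 1.09 on the probe that stands for it. The IL10 call was lost without birth replicate 2 (1.45) or 3 (1.47). On that LYZ probe the call was lost without any array but birth replicate 3 (0.87 to 1.29). The other LYZ probe rose by 1.42 (adjusted p 0.0114) and was called in all 6 fits without an array. Means at 135 d, birth and 1 month were 6.98, 5.33 and 6.92 for IL10 and 7.76, 6.42 and 8.19 for CD86. CTSS, a protease that trims the class II invariant chain, was the 1 of 17 proteolysis genes called, with a rise of 1.43 (SE 0.30, adjusted p 0.0109). C3, the central component of complement, rose on both probes, from 8.05, 6.92 and 8.15 to 10.59, 10.58 and 9.87 on the one with the larger change (2.64, SE 0.35, adjusted p 0.00212). On that probe the C3 mean was 10.49 at 135 d, 7.71 at birth and 10.35 at 1 month. With slide as a block, the differences were 1.37 for FCGR2B, 1.24 for CD86 and 1.79 for that C3 probe. Their unadjusted p values in that fit were 0.29, 0.236 and 0.126.

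Outside the lists, GNLY, which encodes the cytolytic granule protein granulysin of killer lymphocytes, had the second largest rise of a named gene. It read 5.12, 1.56 and 3.87 at birth, well above background on 1 array, and 7.43, 8.83 and 8.99 at 1 month (difference 4.90, SE 0.90, adjusted p 0.0064). Its slide-adjusted difference was 2.54 (unadjusted p 0.36). RGS1, a regulator of G protein signalling in lymphocytes, was not well above background on any newborn array and was at least 8.78-fold higher at 1 month (adjusted p 0.00445). CD1B, a lipid-presenting molecule, rose by 2.75 (adjusted p 0.0201), a call lost without 1 month replicate 1 (2.46) or 2 (2.60). Other immune genes, picked after values were seen, were called lower. CD40, a receptor of antigen-presenting cells, differed by -1.62 and -1.63 on its probes (adjusted p 0.00167 and 0.00332). IFNG, the cytokine interferon gamma, differed by -1.25 (adjusted p 0.00259). Their slide-adjusted differences were -1.63 and -1.28 for CD40 and -0.78 for IFNG. Of the interferon-stimulated genes, 0 of 9 were called by limma, while 8 of 9 read higher and the median was 0.29. Slide-adjusted, 2 of the 9 differences were above 0 and the median turned to -0.64. MX1, the interferon-induced antiviral GTPase, read 11.13, 11.29 and 10.08 at birth and 10.57, 9.84 and 11.07 at 1 month.

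Several cell division genes fell. Of 14 tested cell cycle genes 12 read lower at 1 month, 4 were called lower and 0 higher, with a median of -0.64 (-0.57 slide-adjusted). AURKB, a mitotic kinase, read 8.07, 8.36 and 8.06 at birth and 5.48, 5.25 and 5.36 at 1 month, a difference of -2.80 (SE 0.41, adjusted p 0.00282). CDK1, the kinase that starts mitosis, fell from 9.29, 9.83 and 9.12 to 7.02, 6.62 and 7.15, by 2.48 on the log2 scale (SE 0.37, adjusted p 0.00298). CCNA2, its cyclin partner, differed by -1.99 (SE 0.36, adjusted p 0.00605). TYMS, which makes thymidylate for DNA, differed by -2.21 (SE 0.45, adjusted p 0.0119), with 2 one-month values because the third was missing, and was not called without 1 month replicate 2 (-2.01). In each of the 4 the newborn and 1-month animals did not overlap.

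ASPM, a spindle protein outside the list, fell from 8.80, 9.05 and 8.36 to 5.94, 5.50 and 6.29, a difference of -2.83 (SE 0.52, adjusted p 0.0067). Chosen after values were seen, CDCA3 (-2.14), KIF15 (-2.08) and LMNB1 (-2.10), which act in cell division or the nuclear lamina, were called lower too. PCNA, the sliding clamp of DNA replication, differed by -0.59, CDK2 by -0.83 and CDK4 by -0.73, each with an adjusted p under 0.05 but under 2-fold. Slide-adjusted differences were -3.09 for AURKB (unadjusted p 0.000624), -2.32 for CDK1 (0.00566), -2.14 for CCNA2 (0.00726) and -3.04 for ASPM (0.00499). At 2 months the means were 5.24 for AURKB, 7.16 for CDK1 and 6.96 for CCNA2, and at 135 d of gestation 7.37, 8.63 and 8.89.

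Among growth factors, IGF2, the fetal insulin-like growth factor made from an imprinted locus, fell on one of its probes, while IGF1, the main postnatal one, was not called. IGF2 had 2 probes that shared no run over 6 bases and differed in size of change, so both are shown by their last 30 bases.
IGF2, A_70_P016796: gcaagttcttccaatctgacacctggaagc
IGF2, A_70_P029956: gaaaagcaaactagctttccaaaaacttct
The first read 12.40, 12.83 and 12.98 at birth and 10.34, 10.90 and 10.40 at 1 month, a difference of -2.19 (SE 0.32, adjusted p 0.00279) or 4.56-fold. The second read 16.50, 16.72 and 16.89 and then 15.67, 16.35 and 15.76, a difference of -0.78 (SE 0.25, adjusted p 0.0512), which was not called. On neither did the groups overlap, and both were lower still at 2 months, with means of 9.46 and 14.92. IGF1 read 9.58, 8.95 and 9.24 at birth and 9.41, 9.49 and 9.33 at 1 month (difference 0.16, SE 0.19).

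Of 13 tested genes of the growth hormone and insulin-like growth factor axis, 1 fell and 0 rose, with a median of -0.23. Outside that count, the dimmer probe of the member IGF2 was called lower, as given above (-2.19, adjusted p 0.00279). The faller in the count was IGFBP2, a binding protein of both factors, at -1.09 (SE 0.31, adjusted p 0.0351). Its call was lost without birth replicate 1 (-1.05) or 2 (-0.93) or 1 month replicate 2 (-0.84) or 3 (-1.07). IGFBP3 differed by -0.83 and the growth hormone receptor GHR by 1.13, and neither was called. Of the endocrine list 1 of 27 was called, AGTR2, the type 2 angiotensin receptor, which rose from 3.85, 4.58 and 4.20 to 5.91, 7.03 and 5.60 (1.97, SE 0.33, adjusted p 0.00475). The AGTR2 mean had been 6.36 at 135 d, against 4.21 at birth and 6.18 at 1 month. The receptors ESR1 and NR3C2 differed by 0.09 and -0.13.

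Myogenic regulators were called in both directions. Of 16 tested, 3 rose and 1 fell, beside 12.1% of all symbol probes called, with differences from -1.31 to 1.35 and a median of 0.21. MYF5, a transcription factor of myoblasts and satellite cells, fell from 7.99, 7.93 and 8.02 to 6.22, 6.54 and 7.24, by 1.31 on the log2 scale (SE 0.31, adjusted p 0.017). MYOD1, its relative, read 13.96, 13.35 and 14.04 at birth and 13.17, 14.15 and 15.07 at 1 month and was not called. MYOG, which drives terminal differentiation, differed by -0.04 on one probe and -1.04 on the other, the latter called (adjusted p 0.027). FGF2 and FGF7, growth factors for myoblasts and epithelia, rose by 1.35 (adjusted p 0.0176) and 1.25 (adjusted p 0.0329). Means at 135 d, birth and 1 month were 10.80, 9.03 and 10.37 for FGF2 and 9.04, 6.87 and 8.12 for FGF7. ACVR1B, a type I activin receptor not well above background on any newborn array, was at least 1.44-fold higher at 1 month. Single arrays decided the calls on these probes. That of MYF5 was lost without birth replicate 3 (-1.29) or 1 month replicate 1 (-1.09) or 2 (-1.25). That of ACVR1B was lost without birth replicate 1 (0.87) or 1 month replicate 2 (0.99). The FGF7 call was lost without any 1 array (1.04 to 1.35). On the FGF2 probe given, the call was lost without birth replicate 3 (1.28) or 1 month replicate 1 (1.05) or 2 (1.35). The second FGF2 probe also rose by 1.35 (adjusted p 0.016) and was called in all 6 fits without an array. The MYOG call was kept in 1 of the 6 fits without an array (-1.24 to -0.84).

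**Figure D4:**
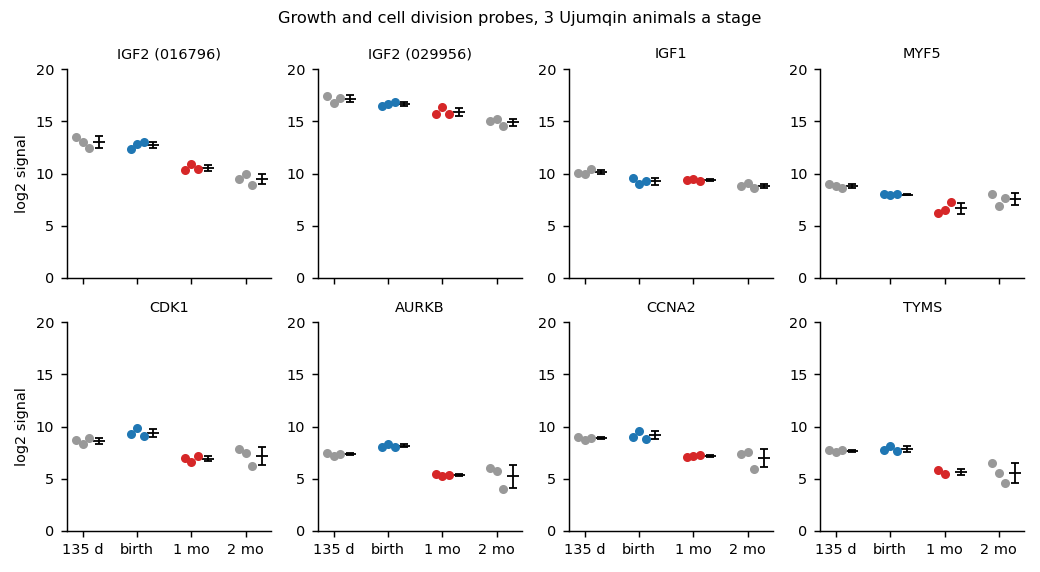
Log2 signal of growth factor, MYF5 and cell division probes at 4 stages; dots are single animals (TYMS has 2 at 1 month) and the bar is the mean with its SD. AURKB lies between 8.06 and 8.36 at birth and between 5.25 and 5.48 at 1 month, while IGF1 overlaps between the 2 ages.

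Of 11 tested genes of the contractile sarcomere 1 was called, beside 12.1% of all symbol probes, and the median difference was 0.10. ACTN3, the alpha-actinin of fast fibres, read 18.06, 17.95 and 17.69 at birth and 17.87, 17.68 and 17.55 at 1 month (-0.20, SE 0.16). The 3 probes of MYH1, the fast IIx myosin heavy chain, differed by 0.01, -0.26 and 0.10. MYH2, the IIa heavy chain, differed by -0.25. TNNC2, fast troponin C, read 18.91, 18.85 and 18.99 at birth and 18.99, 18.85 and 18.99 at 1 month, the highest mean of any tested probe. Quantile normalization gives every array the same set of top values, so the brightest probes could hardly differ and their differences near 0 do not show stability. MYH7, the slow heavy chain, read 10.58, 10.08 and 10.61 at birth and 11.19, 11.03 and 11.19 at 1 month, a difference of 0.71 (SE 0.23) that was not called (adjusted p 0.0509), although the groups did not overlap.

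TPM2, beta-tropomyosin, was the member called, at 9.10, 8.06 and 9.14 at birth and 10.41, 9.65 and 10.07 at 1 month (1.28, SE 0.37, adjusted p 0.0366). Its mean was 8.45 at 2 months, and the call was kept only without birth replicate 1 (0.92 to 1.47 over the 6). CASQ1, the calcium store protein of fast fibres, read 15.51, 15.82 and 15.50 and then 14.80, 14.88 and 14.53, a difference of -0.87 (SE 0.17, adjusted p 0.0078) that was under 2-fold. MB, myoglobin, read 17.97, 17.71 and 18.02 at birth and 18.05, 17.87 and 18.06 at 1 month.

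Glycolytic genes gave 0 calls of 21 with limma (median 0.06) and mitochondrial respiration genes 0 of 8 (median -0.30), although 7 of those 8 read lower at 1 month. Outside these counts, a probe of G6PC1, A_70_P001442, was called higher (1.25, adjusted p 0.0154). ENO3, the muscle enolase, differed by 0.07. GAPDH differed by 0.06 on the probe that stands for it, which is bright (18.09 to 18.47), whereas its dimmer probes A_70_P041486 (11.19 to 12.82) and A_70_P041487 were called higher by 1.26 and 1.24. SLC2A4, the insulin-responsive glucose carrier, differed by 0.67 and 0.91, with adjusted p values of 0.044 and 0.017, under 2-fold. Of 29 ribosome and translation genes 1 fell, RPSA, a protein of the small subunit, from 15.57, 15.37 and 15.63 to 14.51, 14.46 and 14.55 (-1.02, SE 0.17, adjusted p 0.00441). Its difference was near the 2-fold limit and it was not called without birth replicate 1 (-0.99) or 3 (-0.96) or 1 month replicate 2 (-0.99). EEF1A2, the muscle elongation factor, fell by 1.44 on the log2 scale on one probe (SE 0.21, adjusted p 0.00258) and differed by -0.29 on the other, with which it shared no run over 6 bases. The EEF1A2 probe called lower had means of 12.15 at 135 d, 14.45 at birth and 13.01 at 1 month.

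Of 25 lipid genes 2 rose and 1 fell, beside 12.1% of all symbol probes called, and the median of 0.18 turned to -0.20 slide-adjusted. PLIN2, a coat protein of lipid droplets, rose by 1.35 (SE 0.36, adjusted p 0.0282), from 11.49, 11.27 and 11.23 to 12.63, 11.97 and 13.45, and its mean was 13.62 at 2 months. ACSS2, which activates acetate, a main fuel of ruminants, rose by 1.05 (SE 0.22, adjusted p 0.0102). The ACSS2 means on that probe were 8.43 at 135 d, 7.14 at birth and 8.19 at 1 month. APOA1, the main apolipoprotein of high-density lipoprotein, fell from 10.66, 10.47 and 10.74 to 9.48, 9.42 and 8.18 (-1.60, SE 0.34, adjusted p 0.0123), and it was the 1 of 10 liver and gland proteins called as well. LPL, which frees fatty acids from blood lipids, differed by 0.96 on both probes, under 2-fold. The PLIN2 call was lost without birth replicate 2 (1.32) or 3 (1.30) or 1 month replicate 1 (1.38) or 3 (0.97), and that of ACSS2 without birth replicate 2 (0.95) or 1 month replicate 1 (0.80). Adipocyte markers gave 0 calls of 4 with limma on the probes that stand for them, and PPARG, the regulator of fat cell formation, differed by 0.21. A dimmer probe of the listed gene LEP, A_70_P017127, was called lower, with means of 8.13 at birth and 6.97 at 1 month. Its difference of -1.16 (SE 0.16, adjusted p 0.00218) was 0.01 slide-adjusted.

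Collagen and matrix genes gave 0 calls of 22 with limma and a median of -0.17. DCN, decorin, differed by 0.31 and TIMP1, a protease inhibitor, by -0.07. Of 13 endothelial genes 2 rose and 1 fell. FLT1, a receptor for vascular endothelial growth factor, rose from 7.93, 7.44 and 7.70 to 9.60, 8.88 and 9.08 (1.49, SE 0.21, adjusted p 0.00247; slide-adjusted 2.04, unadjusted p 0.00347). EDN1, the vasoconstrictor endothelin, rose by 1.21 (adjusted p 0.013), a call lost without birth replicate 3 (0.95), and SELE, a leukocyte adhesion molecule, fell by 1.22 on the log2 scale (adjusted p 0.00964). Redox and detoxification genes gave 1 call of 16, MT3, a metallothionein, which differed by -1.36 and -1.55 on its probes. The MT3 means were 13.55 and 13.02 at 135 d, 14.99 and 14.62 at birth, and 13.63 and 13.07 at 1 month. KRTAP5.4, a keratin-associated protein of wool, was the 1 of 7 epidermal genes called and was not well above background on any 1-month array (at least 1.18-fold higher at birth). Limma called 0 of 2 developmental muscle genes (median -0.20), 0 of 4 calcium handling genes (0.16), 0 of 5 haemoglobin and erythroid genes (-0.10) and 0 of 4 nerve and glia genes (0.13).

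Of 15 acute stress and immediate early genes 13 read higher at 1 month, 2 were called higher and 0 lower, and the median was 0.58 (0.75 slide-adjusted). Outside that count, dimmer probes of the members CEBPB (1.69, adjusted p 0.00628, with a missing one-month value) and JUN (1.34, adjusted p 0.0291) were called higher. The JUN call was kept in 2 of the 6 fits without an array. PTGS2, the inducible cyclooxygenase, rose from 7.61, 7.0 and 7.01 to 9.89, 9.49 and 9.58 (2.45, SE 0.38, adjusted p 0.00324). HSPA1A, an inducible heat shock protein, rose by 1.40 at an adjusted p of 0.0496, a call lost without any 1 of the 6 arrays (0.94 to 1.70). FOS, an immediate early transcription factor, read 8.47, 7.81 and 5.58 at birth and 11.31, 8.33 and 9.89 at 1 month, and its difference of 2.56 was not called (adjusted p 0.065).

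The largest rise of any tested probe was that of HSPA6, a heat shock protein named by the study's own probe list and outside the stress list. It read 5.16, 4.34 and 5.55 at birth and 13.55, 9.98 and 11.32 at 1 month, a rise of 6.60 (SE 0.70, adjusted p 0.00087) or 97.1-fold. The 3 one-month animals spanned 9.98 to 13.55, so that their own spread (SD 1.81) was wide, but the lowest lay far above every newborn. At 2 months the mean was 15.40 (SD 0.20) and at 135 d of gestation 5.79. Slide-adjusted it rose by 7.68 (unadjusted p 1.4e-05).

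**Figure D5:**
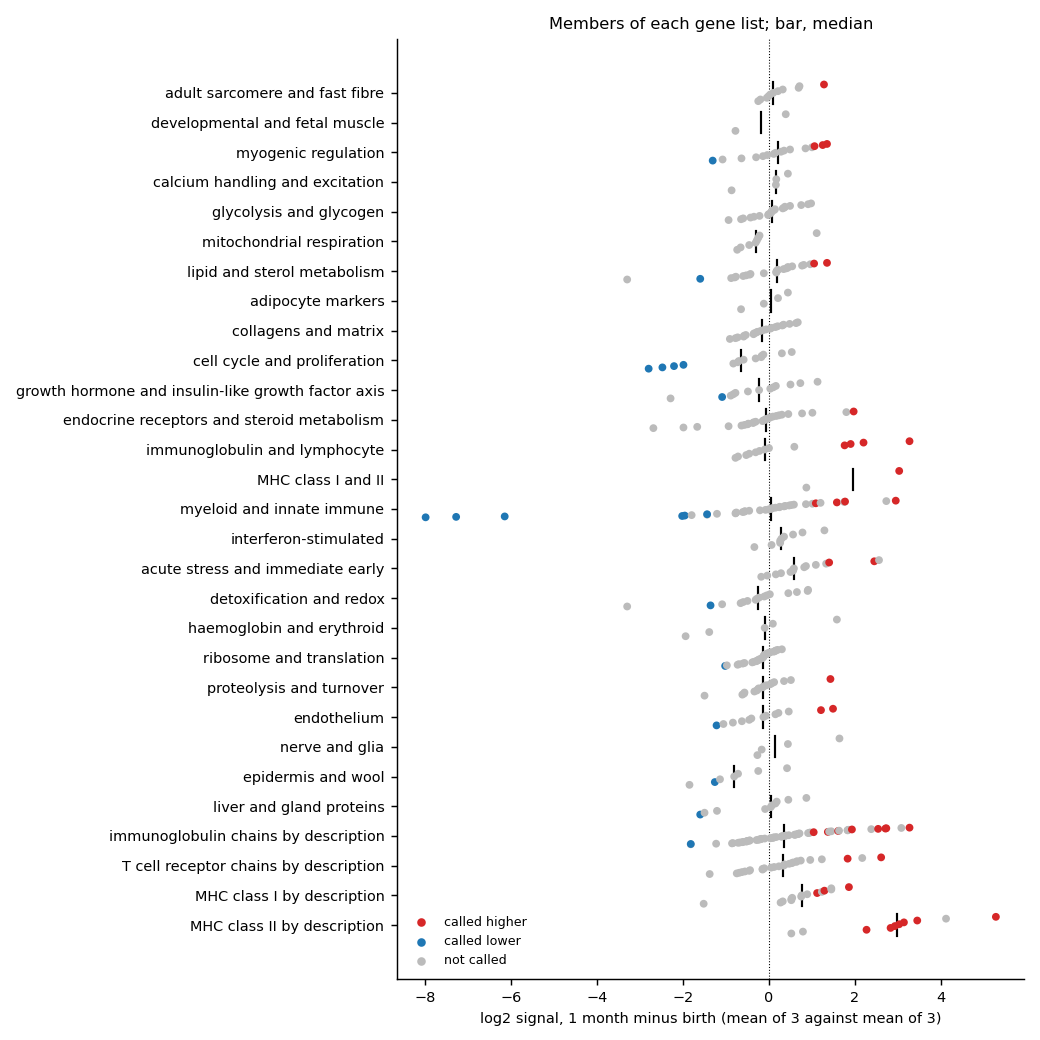
Each dot is a gene of the list named at the left, at its log2 difference, 1 month minus birth; red dots were called higher, blue called lower, grey not called, and the black bar is the list's median. Median differences lie between -0.81 and 0.76 except for the MHC genes, at 1.95 for the 2 named ones, OVAR-DRB1 and B2M, and 2.98 for the 10 class II probes.

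Further genes with large changes belong to no list. PDZK1, a scaffold protein of membrane transporters, fell from 7.46, 9.16 and 9.93 to 4.35, 5.10 and 4.61 (-4.16, SE 0.69, adjusted p 0.00423; slide-adjusted -5.01, unadjusted p 0.000288), and its second probe was called lower too. PRND, the prion-like protein doppel, fell from 9.42, 9.26 and 6.40 to 4.40, 5.49 and 5.09 (-3.37, SE 0.77, adjusted p 0.0152). INHA, the alpha subunit of the hormone inhibin, fell from 9.70, 10.17 and 10.99 to 7.83, 7.80 and 7.03 (-2.73, SE 0.39, adjusted p 0.00303), with -2.68 on its second probe and a slide-adjusted difference of -3.16 (unadjusted p 0.00171). MLN, the gut hormone motilin, fell by 2.35 on the log2 scale (adjusted p 0.00386), but its slide-adjusted difference was -0.22. The unnamed probe with the largest fall, A_70_P032271, went from 8.59, 9.24 and 8.82 to 5.81, 3.52 and 6.42 (-3.63, SE 0.65).

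Among the risers, SLC7A1, a transporter of cationic amino acids, rose by 2.33 (adjusted p 0.0275). SLC15A1, a transporter of small peptides, was not well above background on any newborn array and was at least 2.92-fold higher at 1 month (adjusted p 0.0135), and NOL7, a nucleolar protein, likewise (at least 3.79-fold, adjusted p 0.00165). The call of SLC15A1 was lost without birth replicate 3 (2.09), and that of SLC7A1 without birth replicate 1 (2.15) or 2 (2.19) or 1 month replicate 1 (1.70) or 2 (2.59). Chosen after values were seen, several receptors and enzymes of lipid mediators were called higher: PTGER4, a prostaglandin E receptor, from 8.26, 7.91 and 8.08 to 9.74, 10.04 and 9.93 (1.82, SE 0.20, adjusted p 0.000968), PTGFR, the prostaglandin F receptor, by 1.80, and ALOX5AP, which helps make leukotrienes, by 1.52 and 1.48. On the ALOX5AP probe that rose by 1.52 the mean was 10.25 at 135 d, 8.22 at birth and 9.74 at 1 month. C5AR1, the receptor for the complement fragment C5a, rose by 1.99 and 2.07. Slide-adjusted differences were 0.94 for PTGER4 and 0.69 for PTGFR. They were 0.45 and 0.34 for the ALOX5AP probes and 0.88 and 1.06 for the C5AR1 probes.

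Whether the first month differed from the second was tested as the change from birth to 1 month minus the change from 1 to 2 months, in the same fit; both changes share the 1-month arrays. The test called 687 probes (5.02%). Most genes named above were picked by their change from birth to 1 month, which is itself part of this difference. Calls among them were favoured by that choice and are no separate support for a difference between the months. By itself, 2 months against 1 month gave 417 called probes (3.05%), and birth against 135 d gave 2617 (19.1%). Among genes named above, the difference was called for CD3G (2.44, adjusted p 0.0354), OVAR-DRB1 (2.42, adjusted p 0.0238), CDK1 (-2.72, adjusted p 0.0392), PDZK1 (-4.73, adjusted p 0.0474), BAC5 (-6.72, adjusted p 0.0473), MYF5 (-2.20, adjusted p 0.0424), AGTR2 (2.79, adjusted p 0.0271), PTGER4 (3.66, adjusted p 0.00186), CDCA3 (-2.36, adjusted p 0.0294), LMNB1 (-2.07, adjusted p 0.035), SMAD3 on the called probe (1.63, adjusted p 0.0144), SLC7A1 and TPM2. It was also called for the T cell receptor alpha probe (2.56), the DR beta 3 probe (2.41), the class I probe A_70_P016811 (2.82), both dimmer GAPDH probes (1.47 and 1.52), 1 probe each of ACSS2 (1.38), SLC2A4 (1.60) and G6PC1 (2.49), and for NOL7, SLC15A1 and the CD4 and CTLA4 probes called lower, which were below background in at least 1 of the ages. CD40 (-1.93 and -1.99 on its probes) and IFNG (-1.97) were called for this difference as well. CATHL1B (-8.33, adjusted p 0.066), CATHL3 (-7.11, adjusted p 0.0568) and IGF2 (-1.10, adjusted p 0.273) missed the threshold. From 1 to 2 months HSPA6 rose again, by 3.78 (adjusted p 0.0131), RGS1 by 2.85 (adjusted p 0.0188), HSPA1A on another probe by 1.60 (adjusted p 0.0469) and CD86 by 1.13 (adjusted p 0.0469). PTGER4 (-1.85, adjusted p 0.00262), TPM2 (-1.60), a MYOG probe (-1.27) and the brighter IGF2 probe (-1.01) were called lower over that month. The 687 went to 457 without birth replicate 2, 371 without birth replicate 3, and 260, 97 and 338 without 1 month replicates 1, 2 and 3.

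Of 98 called genes with several tested probes, 78 had all probes differing in the same direction and 30 had all of them called. Besides IGF2, MYOG, EEF1A2 and GAPDH, SMAD3, which carries activin and transforming growth factor signals, rose by 1.55 on one probe (adjusted p 0.00092) and differed by 0.28 on the other. The SMAD3 probe that rose had means of 5.19 at 135 d, 3.95 at birth and 5.50 at 1 month. Second probes were called in the same direction for CD3D (1.95), CD5 (1.70), GNLY (4.28), LYZ (1.42), FGF2 (1.35), FLT1 (1.06), PLIN2 (1.46), ACSS2 (1.21), MYF5 (-1.05), APOA1 (-1.55) and PRND (-1.56). Of the 195 called probes with a symbol, 14 were not well above background on any newborn array and 14 not on any 1-month array, so that their change is known only as a lower bound.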

How the data were processed

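The arrays were 1-colour Agilent sheep arrays, each hybridised with Cy3-labelled total RNA of 1 animal. Per the file headers and the labels, the authors read spots with Agilent Feature Extraction 10.5, and the deposited intensity of a spot is its background-subtracted processed signal. The deposited series table holds log2 values that matched the quantile-normalized scanner values (lowest array correlation 1), and it was used as an alternative. From the scanner files, the processed signals of all 40 arrays were averaged over spots of a probe, without control and outlier spots, quantile-normalized together, set to at least 1 and turned to log2. One limma (3.58.1, R 4.3.3) fit held the 12 Ujumqin arrays of 135 d, birth, 1 month and 2 months. Probes were tested if any of the 6 arrays read them well above background (13692 of 15008; 1316 were left out), with Benjamini-Hochberg adjustment over all of them, and called at an adjusted p under 0.05 and a 2-fold change.

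No gene coordinates are given, as no genome was used. Of the 15008 probes, 1605 were named by the scanner files, updated through RefSeq, and 231 by the study's own probe list. The members and gene lists were chosen with earlier results of these data known. A list counts 1 probe a gene, that of the highest mean signal, so a gene can count as not called although another of its probes was called. LOC443162, described as galectin-14, and the melatonin receptor that shares a synonym with a metallothionein were taken out of the lists they had matched. The genes named are the 12 largest rises and 12 largest falls among called symbols whose arrays did not overlap and whose brighter group was well above background on all 3 arrays, up to 5 called members in each direction and 2 others of each list, and the fast fibre and growth genes ACTN3, MYH1, CASQ1, EEF1A2, IGF2 and IGF1. An "at least" fold sets the brighter group's mean against, for each dim array, the higher of the lowest signal well above background and the probe's own signal.

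The number of arrays limits the precision, and no spot was saturated. Median signals were 326.787 to 359.079 at birth and 250.821 to 281.484 at 1 month, with 79.3% to 86.4% and 85.6% to 87.5% of probes well above background. Arrays of a group correlated at 0.9707 to 0.982 and 0.9813 to 0.9881, arrays of different groups at 0.9574 to 0.9695. No 2 arrays were identical. An exact permutation test of 1 probe over 3 and 3 animals has 0.1 as its smallest two-sided p, and none was run. On simulated data 169 of 200 changed probes among 13692 were called, 80 of 100 at a log2 change of 1.5 and 89 of 100 at 3, with 6 other probes called and 0 where no probe was changed. The simulated noise was independent between probes and held no slide effect. It therefore gives no rate of false calls for groups that lie on different slides.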

Additional observations from a re-analysis of the deposited data

Results flagged for a closer look

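TPM2, beta-tropomyosin, moved in opposite directions in the 2 intervals. It rose by 1.28 from birth to 1 month (SE 0.37, adjusted p 0.0366) and fell by 1.60 on the log2 scale from 1 to 2 months (adjusted p 0.0319). The difference between the changes, tested in the same limma fit, was 2.87 (adjusted p 0.0334), and both changes rest on the same 1-month arrays, which lie on a slide of their own among the stages compared. With slide as a block the rise was 0.18.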

How the results depend on the processing

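The 69 called probes named by the rule kept their direction under each alternative that tested them but one; the filter of well above background on all 3 arrays of a group tested 66 of them. With slide as a fixed block over all 40 arrays, an alternative chosen after seeing the data, 4 reversed: an immunoglobulin chain probe, A_70_P026116, to 1.98, the class I probes A_70_P016301 and A_70_P057141 to -0.50 and -0.63, and the class II probe A_70_P024151 to -2.37. That fit called 0 probes in either direction, 0 with a symbol and 0 for the difference between intervals, with 659 at an unadjusted p under 0.05 and 2-fold, whereas slide as a random block, also added, called 1041. The normexp background correction called 336 probes (184 higher, 152 lower, 70 with a symbol), and the cause was not tested. The methods' t-test called 887 at an unadjusted p under 0.05 with 2-fold and, after Benjamini-Hochberg adjustment, 3 (2 higher, 1 lower, 1 with a symbol). Without the 2-fold limit 2647 were called (1290 higher, 1357 lower, 353 with a symbol). Scaling to the 75th percentile called 1045, 52.1% of them higher against 56.3%.

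Leaving out each array in turn gave 717 to 1015 called probes, 383 to 555 higher and 334 to 473 lower, 139 to 182 with a symbol, and 97 to 582 for the difference between intervals. The replicate numbers did not pair the samples (correlations of same-numbered deviations 0.0652, -0.00317 and 0.035); the replicate block called 928 probes, and 264 for the difference between intervals. Slide as a block among the 12 fitted arrays could not give the comparison, since birth and 1 month are each alone on a slide there.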
